A study of Homo sapiens with 6 samples.

Results

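RNA-Seq counts were examined for 6 genes of apoptotic DNA cleavage and DNA crosslink repair in U2OS cells, a human osteosarcoma line: DFFB, DFFA, FAAP20, CASP8, CASP9 and ENDOG. The genes were listed by name, with earlier results of these data known, and their symbols were matched to the Ensembl identifiers of the count lists. All 6 are among the 67140 genes listed for the etoposide libraries, and 2 of them, DFFB and FAAP20, are among the 220 genes listed in all 6 libraries. The libraries form 3 groups with 2 libraries each: cells with no treatment, cells given etoposide at 100 μM (spelled Etopside in the labels) and cells given adriamycin at 1.5 μg/ml. Each drug was given for 4 h, and all libraries have the genotype WT. U2OS is a single tumor line, and no label says that the replicates came from separate cultures, so the p-values measure only the spread between these libraries, which may be technical.

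Adriamycin and etoposide both poison topoisomerase II and leave breaks in DNA. When a damaged cell enters apoptosis, initiator caspases activate executioner caspases, which cut DFFA away from DFFB and free this nuclease to cleave DNA between nucleosomes. ENDOG is a nuclease of mitochondria that can move to the nucleus during cell death. FAAP20 acts earlier, in the Fanconi anaemia core complex, which marks stalled forks at DNA crosslinks for repair.

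The etoposide libraries held 21450766 and 14244235 counts. The count lists used here held only the start of the gene list for the other groups. They had 292 and 280 genes for the control libraries and 220 and 221 for the adriamycin libraries. The 220 shared genes, which come first in the list, summed to between 59357 and 92794 counts per library. A sum over these genes is not a depth: in the etoposide libraries it was 0.433% and 0.430% of all counts. The labels call the cells Epithelial and the tissue Bone. In the etoposide libraries, 5 of 7 epithelial markers reached 10 counts in each library, a limit that 68.9% of all coding genes reached. The count of markers is near that share and does not bear out the label. KRT8 was at 451 ± 25.9 TPM (SD, n = 2), a level per exon length that is scaled to the same total in every library. CDH1 passed with 30 and 20 counts, while KRT19 and ESRP1 had at most 1 count in either library. Of 7 mesenchymal and bone markers, 6 passed the same limit, led by COL1A1 at 1368 ± 63.9 TPM, and COL1A2 had 5 and 2 counts. The 4 blood markers had at most 6 counts in either library, and of the endothelial markers CDH5 had 4 and 6 and PECAM1 22 and 14. These markers were not analysed in the control and adriamycin libraries.

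DFFB, the caspase-activated DNase, was a weakly expressed gene in every library. DFFB (ENSG00000169598) spans bases 3857267 to 3885429 of chromosome 1 (GRCh38, plus strand). Without treatment the libraries held 73 and 50 reads of DFFB, with etoposide 72 and 43, and with adriamycin 35 and 21. Normalized counts, which are counts divided by each library's TMM-scaled total over the shared genes, were 59.1 and 57.4 in control cells, 48.7 and 45.2 in etoposide-treated cells and 37.9 and 29.3 in adriamycin-treated cells. The adriamycin libraries were the lowest, the etoposide libraries lay between, and no group overlapped another.

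None of the 3 comparisons of DFFB passed the test, which was edgeR's quasi-likelihood test over the 94 of 220 genes with enough counts, DFFB and FAAP20 among them, at an adjusted p under 0.01. Against control, the difference with adriamycin was −0.78 on the log2 scale (standard error 0.35), and its 95% interval ran from −1.48 to −0.08 (unadjusted p = 0.0297, edgeR adjusted p = 0.0581). Etoposide gave −0.31 against control, with an interval from −0.94 to 0.33 (edgeR adjusted p = 0.485). Adriamycin against etoposide gave −0.47, with an interval from −1.18 to 0.23 (edgeR adjusted p = 0.281). The interval of the etoposide difference holds both no change and a difference as large as that with adriamycin, so this depth leaves the size of either difference wide. Libraries without overlap in the lower direction were common. The share was 42.6% of all tested genes for adriamycin against control, 36.2% for etoposide against control and 40.4% for adriamycin against etoposide. None of the 3 pairwise separations of DFFB therefore stands apart. How many genes show the whole order of the 3 groups was not counted. In the same comparisons, 19.1%, 17% and 24.5% of the tested genes passed the test in the lower direction. Under 16 other settings, the log2 fold change of DFFB for adriamycin against control stayed between −0.997 and −0.59, and its edgeR or DESeq2 adjusted p between 0.0139 and 0.216. For etoposide against control the value ran from −0.37 to −0.082, nearest to 0 with upper-quartile scaling. For adriamycin against etoposide it ran from −0.89 with the library total alone (edgeR adjusted p = 0.0250) to −0.30 without adriamycin replicate 2. In bulk RNA, a lower share of cells that express a gene and less RNA per cell cannot be told apart.

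**Figure D1:**
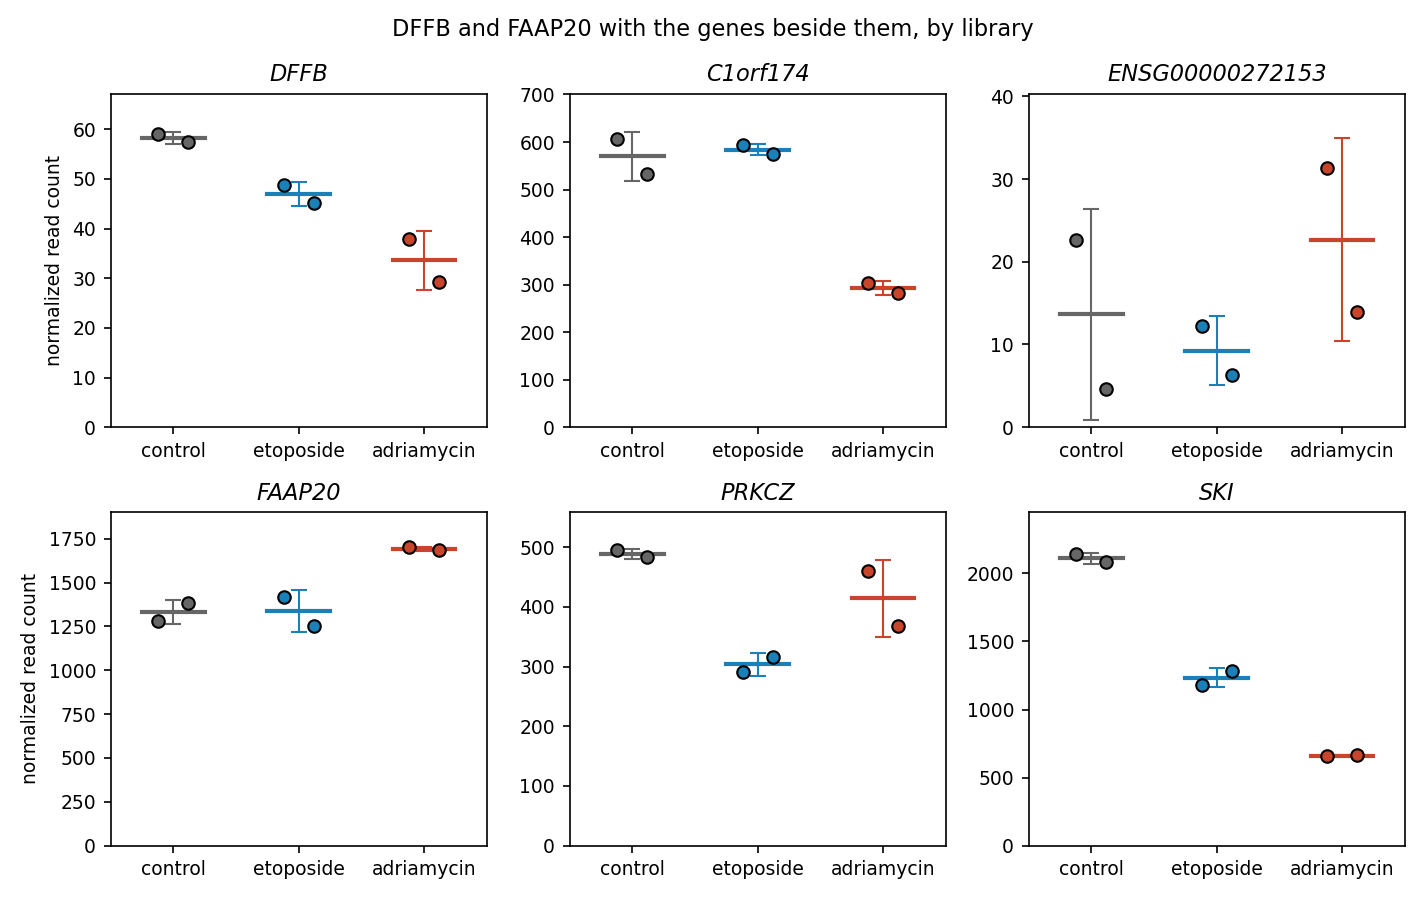
Normalized read counts (y axis) of DFFB, FAAP20 and 4 genes near them in control, etoposide and adriamycin libraries (x axis). Each library has 1 point, with a line at the mean and bars of 1 SD (n = 2). The DFFB points step down from control (59.1 and 57.4) to adriamycin (37.9 and 29.3), and the FAAP20 points of adriamycin (1701 and 1685) lie above all others of that gene.

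Of the genes near DFFB, C1orf174 passed the test with adriamycin. C1orf174, the next gene downstream, had 606 and 533 normalized counts in control cells, 593 and 576 in etoposide-treated cells and 303 and 282 in adriamycin-treated cells. C1orf174 fell by 0.96 in log2 terms with adriamycin (standard error 0.12, edgeR adjusted p = 7.24e-12), while etoposide gave 0.03 against control. ENSG00000272153, a short lncRNA gene upstream whose start lies 72259 bases from that of DFFB, had 4 to 29 counts per library. It passed no comparison.

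Ratios of counts within a library need no scaling between libraries. Per 100 counts of C1orf174, the counts of DFFB were 9.76 and 10.8 in control cells, 8.22 and 7.86 in etoposide-treated cells and 12.5 and 10.4 in adriamycin-treated cells. The adriamycin and control libraries overlapped in this ratio. Set against FAAP20, the other member, the libraries held 21.7 and 24.1 counts of FAAP20 per count of DFFB without treatment, 29.1 and 27.7 with etoposide and 44.9 (95% interval 32.2 to 64.8) and 57.4 (37.4 to 93.1) with adriamycin. The adriamycin libraries had the highest ratios of FAAP20 to DFFB. The 95% exact binomial intervals here cover counting error only.

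**Figure D2:**
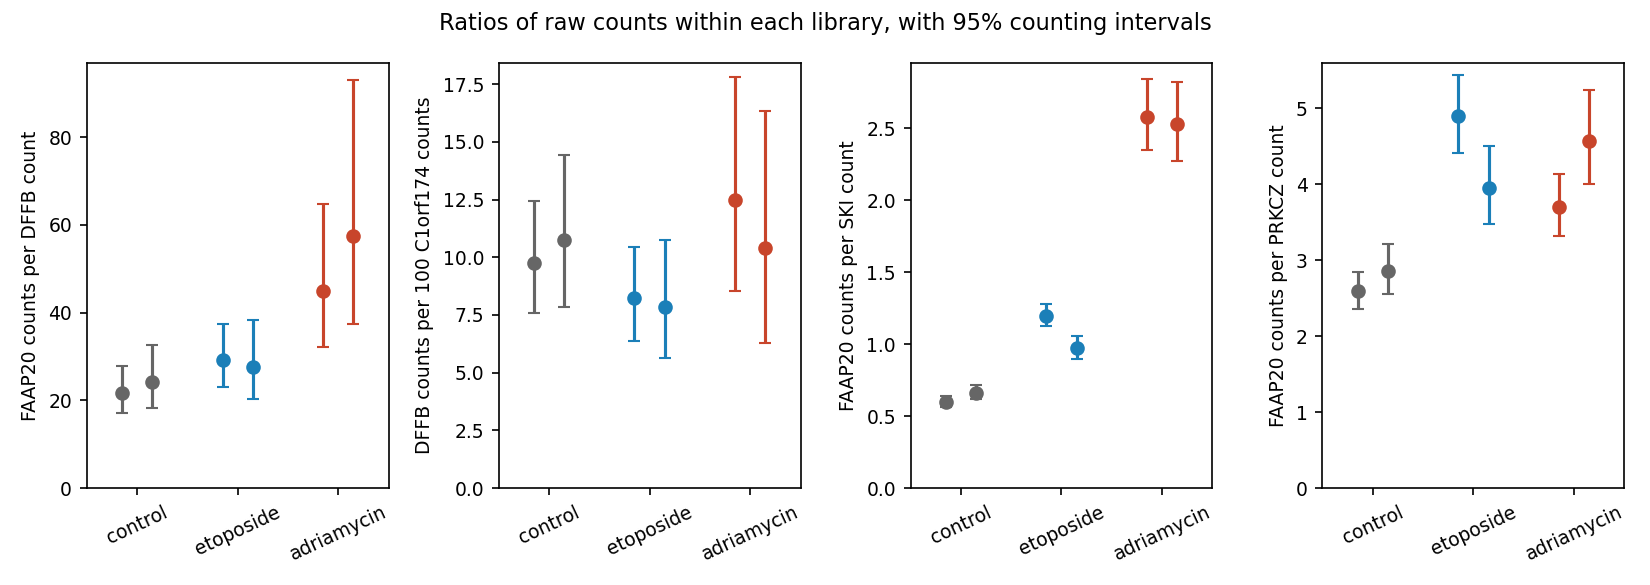
Ratios of raw counts within each library (y axes) by group (x axis), 1 point per library, with 95% exact binomial intervals for counting error. FAAP20 per DFFB count is highest in the adriamycin libraries (44.9 and 57.4), DFFB per 100 C1orf174 counts overlaps between control and adriamycin, and FAAP20 per SKI count goes from 0.599 and 0.664 in control to 2.58 and 2.53 with adriamycin.

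FAAP20, a small ubiquitin-binding subunit that binds FANCA, was well expressed. Under TMM scaling it was higher with adriamycin than without treatment and than with etoposide. With the library total alone neither difference passed the test, and the difference from etoposide changed direction. Both calls were also lost when any single library of either compared group was left out. FAAP20 (ENSG00000162585) spans bases 2184461 to 2212720 of chromosome 1 (GRCh38, minus strand). Without treatment it drew 1583 and 1205 counts, with etoposide 2098 and 1189, and with adriamycin 1573 and 1206. Its normalized counts were 1283 and 1382 in control cells, 1420 and 1251 in etoposide-treated cells and 1701 and 1685 in adriamycin-treated cells. On this TMM scale both adriamycin libraries were above the other 4, and the control and etoposide libraries overlapped.

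FAAP20 rose with adriamycin against control by 0.35 in log2 terms (standard error 0.092, 95% interval from 0.16 to 0.53, edgeR adjusted p = 0.00104), a fold of 1.27. Against etoposide it was higher with adriamycin by 0.34 (standard error 0.092, interval from 0.16 to 0.52, edgeR adjusted p = 0.000775), but with the library total alone as the scale this value was −0.075 (edgeR adjusted p = 0.522). Etoposide against control gave 0.0074, with an interval from −0.17 to 0.19 (edgeR adjusted p = 0.956). On other scales this value lay above the interval, at 0.23 with upper-quartile scaling (edgeR adjusted p = 0.0377) and 0.21 with the library total alone (edgeR adjusted p = 0.0538), neither past the test. Libraries without overlap in the higher direction were found for 33% of tested genes for adriamycin against control, 37.2% for adriamycin against etoposide and 34% for etoposide against control. Of all 94 tested genes, 19.1% passed in the higher direction for adriamycin against control, 21.3% for adriamycin against etoposide and 5.32% for etoposide against control, and 23 genes had a larger log2 fold change than FAAP20 for adriamycin against control. A change of this size and direction was therefore shared by many genes of the region. It is under the study's limit of 1 on the log2 scale.

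The size of the FAAP20 change depended on the scale. Every scale used rests on the shared genes at the start of the list, so each fold change is relative to those genes. With the library total alone, adriamycin against control gave 0.13 (edgeR adjusted p = 0.225), where the median of all tested genes was −0.29 in place of −0.072 under TMM. AGRN, the gene with the highest count, took 28.6% and 29.0% of the shared counts in the adriamycin libraries and 21.1% to 24.6% in the other 4. Relative to the median gene, FAAP20 was higher by 0.42 under TMM, DESeq2's size factors, upper-quartile scaling and the library total alike (0.41 to 0.42 for adriamycin against etoposide), and DFFB was at −0.71 under all of them. A scale moves all genes by nearly the same amount, so these values differ little by construction and are given as a description. With 1 library left out, the log2 fold change of FAAP20 for adriamycin against control lay between 0.33 and 0.40. The edgeR adjusted p was then 0.0052 without etoposide replicate 2 and between 0.0105 and 0.0474 without each of the others, which is over 0.01. Against etoposide, it was 0.0018 and 0.0033 without either control replicate and between 0.0119 and 0.0207 without any of the other 4 libraries.

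**Figure D3:**
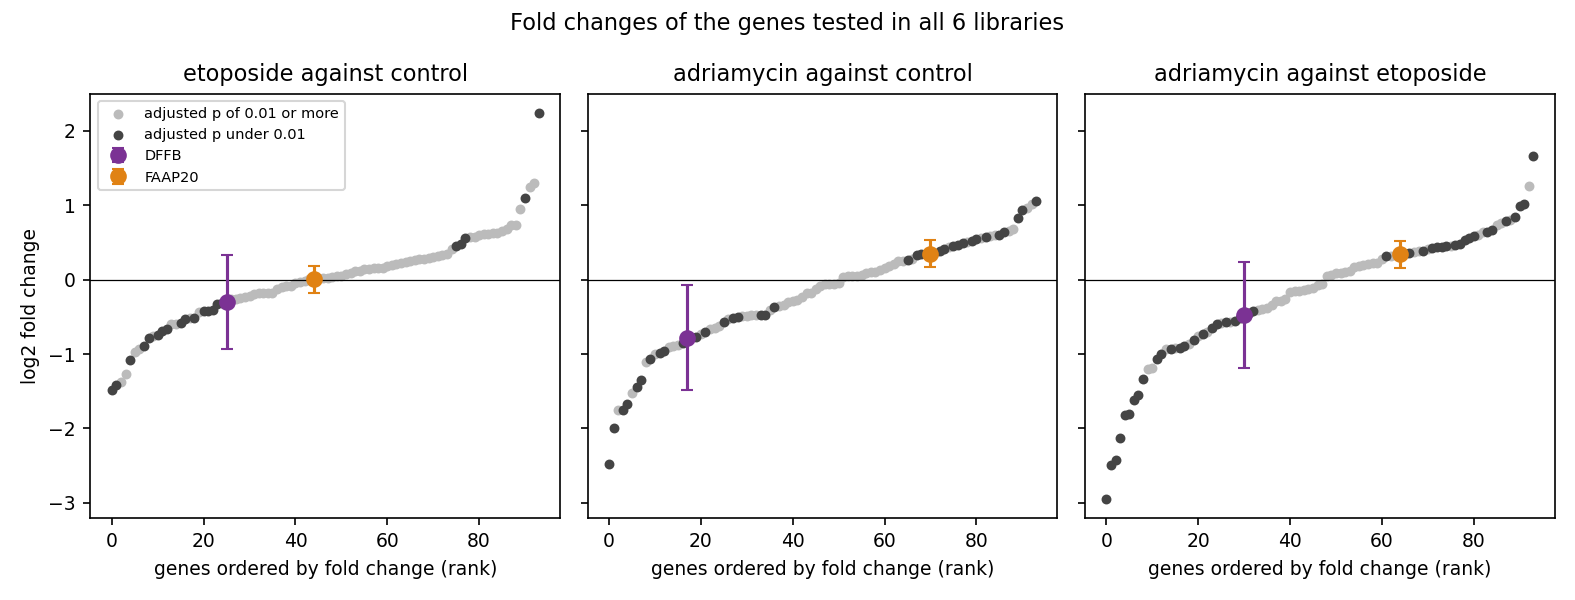
Log2 fold changes (y axis) of the 94 genes tested in all 6 libraries, ordered by size (x axis, rank), for the 3 comparisons, with genes past the test in dark gray and 95% intervals for DFFB and FAAP20. For adriamycin against control, DFFB (−0.78) has 17 genes below it with an interval that ends just under 0, and FAAP20 (0.35) lies among the genes that passed in the higher direction, with 23 genes above it.

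**Figure D4:**
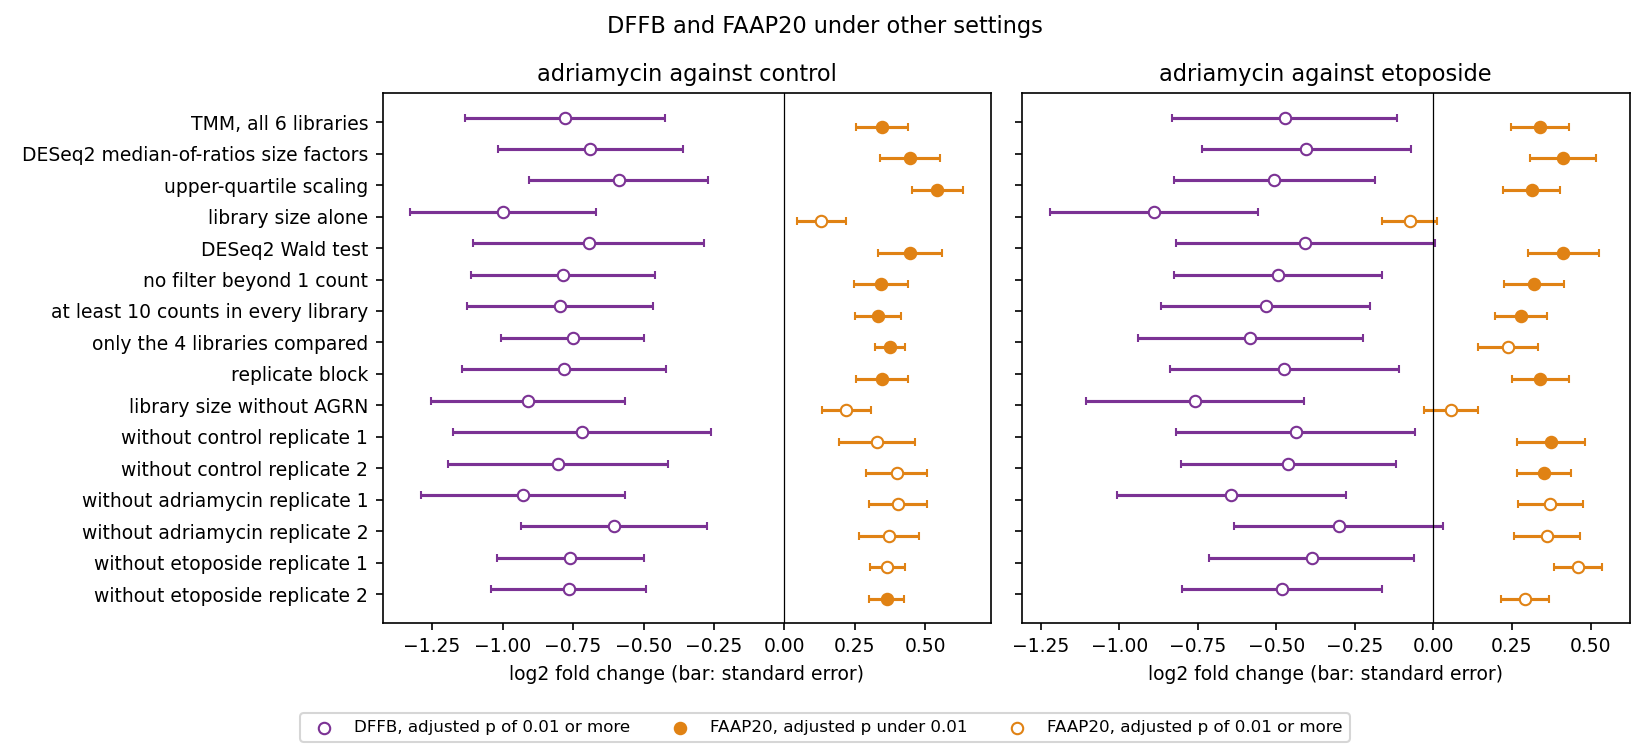
Log2 fold changes (x axis, bars of 1 standard error) of DFFB and FAAP20 for adriamycin against control and against etoposide under each setting (y axis), filled where the adjusted p was under 0.01. All DFFB points are open and below 0, and the FAAP20 point is at 0.13 and −0.075 with the library total alone.

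The genes beside FAAP20 were set against it. SKI, a repressor of SMAD signaling whose start lies 14668 bases from that of FAAP20 on the opposite strand, had 2141 and 2082 normalized counts in control cells, 1184 and 1283 in etoposide-treated cells and 659 and 665 in adriamycin-treated cells. SKI fell with adriamycin by 1.67 on the log2 scale (edgeR adjusted p = 7.66e-33) and with etoposide by 0.78 (edgeR adjusted p = 1.73e-12). The libraries held 0.599 and 0.664 counts of FAAP20 per count of SKI without treatment, 1.20 and 0.975 with etoposide and 2.58 and 2.53 with adriamycin, with no overlap of the 95% intervals between groups. PRKCZ, which encodes an atypical protein kinase C and overlaps the end of FAAP20 on the opposite strand, fell with etoposide by 0.69 (standard error 0.12, edgeR adjusted p = 6.28e-07). PRKCZ did not pass for adriamycin against control, at −0.23 (edgeR adjusted p = 0.0970). Like FAAP20 it was higher with adriamycin than with etoposide, by 0.46 (edgeR adjusted p = 0.000673), a value that was 0.046 with the library total alone. PRKCZ and FAAP20 share 590 exon bases, or 5.40% of those of FAAP20, and how reads there were assigned is not given in the sources used here. The ratio of FAAP20 to PRKCZ counts was 2.59 and 2.86 without treatment, 4.89 and 3.95 with etoposide and 3.70 and 4.57 with adriamycin, so the drug groups overlapped and both lay above control. PRKCZ-AS1, an lncRNA gene beyond that end, had 97.2 and 79.2 normalized counts in control cells, 51.4 and 53.7 with etoposide and 54.1 and 74.0 with adriamycin, and passed no comparison. ENSG00000234396, which overlaps the start of FAAP20, had 0 counts in all 6 libraries, where a count of 0 allows up to 3.

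The RefSeq window from 250 bases before to 50 bases after the FAAP20 start is shown because FAAP20 is the member that passed a test. On the minus strand at chr1:2212671-2212970 of GRCh38.p14 it reads, 5′ to 3′ and with any motif searched in capitals:
FAAP20: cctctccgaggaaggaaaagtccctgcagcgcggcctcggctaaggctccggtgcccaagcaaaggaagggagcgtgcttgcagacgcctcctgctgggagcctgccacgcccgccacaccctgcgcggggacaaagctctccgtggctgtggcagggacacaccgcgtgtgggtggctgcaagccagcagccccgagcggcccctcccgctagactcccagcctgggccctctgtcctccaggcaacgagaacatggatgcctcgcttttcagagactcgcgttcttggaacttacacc
No letter is in capitals, because none of the motifs searched on both strands occurs in it: CCAAT, the GC box GGGCGG, the TATA box TATAAA and the E-box CACGTG. These were found in 34.6%, 44.9%, 11.6% and 7.23% of the 34943 windows of the same length in the table. The FAAP20 window is 66.0% G and C with 21 CpG dinucleotides, against medians of 58.7% and 14 over all windows. A window without a match says nothing about the factors.

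The genes with the most similar pair of log2 fold changes against control, by Euclidean distance over the 6 libraries, were listed for each member as a description. For FAAP20 they were AURKAIP1, ENSG00000260179, MRPL20, ACAP3 and CDK11B, at distances of 0.021 to 0.086. AURKAIP1 and MRPL20 encode mitochondrial ribosomal proteins, and AURKAIP1 gave 0.03 for etoposide and 0.34 for adriamycin. CDK11B has a near-identical copy, CDK11A, so its counts are uncertain. For DFFB they were ENSG00000230699, PRXL2B, ENSG00000228327, SAMD11 and ARHGEF16, at larger distances of 0.12 to 0.30. PRXL2B, a peroxiredoxin-like enzyme, gave −0.41 for etoposide and −0.86 for adriamycin with 216 to 759 counts per library, against 21 to 73 for DFFB. Both fold changes share the control libraries.

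DFFA, CASP8, CASP9 and ENDOG were analysed only in the etoposide libraries, so they have a level with etoposide and no comparison. Levels between genes were set side by side as TPM, per exon length. DFFA, the inhibitor and chaperone of DFFB (ENSG00000160049, chromosome 1, minus strand, bases 10456522 to 10472529), had 2568 and 1728 counts, or 62.2 and 64.3 TPM. DFFB itself was at 2.98 and 2.74 TPM. The per-length ratio of DFFA to DFFB was 20.8 in the first library, with a 95% exact binomial interval from 16.5 to 26.7, and 23.5 in the second, from 17.4 to 32.6. The mRNA of the inhibitor thus exceeded that of the nuclease many times over in both libraries.

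ENDOG (ENSG00000167136, chromosome 9, plus strand, bases 128818500 to 128822676) had 280 and 157 counts and, with its short exons, 39.2 and 33.8 TPM. Of its exon bases, 40.1% overlap SPOUT1 and ENSG00000286112 on the opposite strand, and its level was 54.7 TPM when only bases unshared with another listed gene were used for all lengths, a choice made after seeing the data. CASP8 (ENSG00000064012, chromosome 2, plus strand, bases 201233443 to 201361836), the initiator caspase of death receptors, had 540 and 373 counts, or 11.97 and 12.71 TPM. CASP9 (ENSG00000132906, chromosome 1, minus strand, bases 15490832 to 15526534), the initiator caspase of the mitochondrial pathway, had 138 and 79 counts, or 4.20 and 3.70 TPM. Between these members the death-receptor caspase had the more abundant mRNA, with a per-length ratio of CASP8 to CASP9 of 2.85 (2.36 to 3.46) and 3.44 (2.69 to 4.44). These intervals cover counting error only. With the longest transcript in place of all exons, CASP8 was at 23.0 and CASP9 at 3.51 TPM, so the size of the ratio depends on the length used.

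In order of mean TPM, the members ranked DFFA (63.3 ± 1.51, SD, n = 2), ENDOG (36.5 ± 3.83), FAAP20 (28.8 ± 2.81), CASP8 (12.3 ± 0.523), CASP9 (3.95 ± 0.357) and DFFB (2.86 ± 0.173). No neighbors in this order overlapped between the libraries, but the ratio of DFFB to CASP9 was 0.710 (0.527 to 0.951) in the first library and 0.741 (0.499 to 1.09) in the second, so their order is not separated beyond counting error in the latter. The top of the order depended on the length used: with the longest transcript in place of all exons, FAAP20 was at 52.96, DFFA at 52.3 and ENDOG at 27.5 TPM. DFFA was above 87.6% of the 19892 protein-coding genes of the list and DFFB above 42.8%. FAAP20 was the 1 member whose CPM, the count scaled to the library total, differed between the etoposide libraries beyond counting error, with a ratio of 1.17 (95% interval 1.09 to 1.26).

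The RefSeq windows around the starts of DFFA, the highest member by the main length, and CASP9, among the lowest, are shown to set a high and a low member side by side. They lie on the minus strand of GRCh38.p14 at chr1:10472480-10472779 and chr1:15524166-15524465, and capitals mark the motifs named above on either strand:
DFFA: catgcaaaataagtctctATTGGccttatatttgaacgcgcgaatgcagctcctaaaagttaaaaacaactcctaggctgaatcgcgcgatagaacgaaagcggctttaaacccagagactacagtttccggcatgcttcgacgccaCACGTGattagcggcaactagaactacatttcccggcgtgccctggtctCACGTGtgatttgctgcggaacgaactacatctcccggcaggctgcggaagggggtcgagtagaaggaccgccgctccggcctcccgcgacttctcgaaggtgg
CASP9: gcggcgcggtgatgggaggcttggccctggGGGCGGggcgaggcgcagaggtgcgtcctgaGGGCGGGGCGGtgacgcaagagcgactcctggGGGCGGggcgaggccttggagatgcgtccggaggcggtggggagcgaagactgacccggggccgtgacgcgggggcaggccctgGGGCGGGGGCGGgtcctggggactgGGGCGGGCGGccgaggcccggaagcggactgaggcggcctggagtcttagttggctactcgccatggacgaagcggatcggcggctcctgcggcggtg
The DFFA window holds 2 E-boxes and 1 CCAAT box, read as ATTGG on the opposite strand, and no GC box. The CASP9 window holds 8 GC boxes, some of which overlap, and 15.7% of all windows hold 3 or more. RefSeq gives CASP9 a second start, whose window holds 9 GC boxes and 1 CCAAT box. The printed windows carry 27 (DFFA) and 36 (CASP9) CpG dinucleotides, and the second CASP9 window 30, all over the median of 14. A pair of genes cannot show how CpG content relates to level. The consensus half-site of p53 did not occur in the printed DFFA, CASP9 and FAAP20 windows or in the ENDOG window. It occurred in 1 of 3 CASP8 windows and in the second CASP9 window, against 6.64% of all windows. A gene with more windows has more chances of a match.

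The wider pathways were described from 4 lists of 57 genes in all, of which DFFB and FAAP20 are the 2 analysed in all 6 libraries. Among 18 apoptotic nucleases and their regulators, 12 reached 10 counts in each etoposide library, against 13715 of 19892 coding genes (68.9%). The median was 9.18 TPM, against 5.75 TPM over all coding genes, and the range ran from 0 to the 495 ± 19.5 TPM of FEN1, a flap endonuclease of DNA replication. HMGB2, a chromatin protein that stimulates DFFB, was at 230 ± 24.3 TPM, and ACIN1, a caspase substrate in chromatin condensation, at 78.3 ± 6.57 TPM. Relatives of DFFA and DFFB that share their CIDE domain had few counts, with 2 and 0 for CIDEA and 8 and 4 for CIDEC, and CIDEB is listed at 0 in both. DNASE1L3 had 3 and 1 counts, and DNASE2B and TREX1 had 0 in both, where a count of 0 allows up to 0.140 CPM and 0.211 CPM. For TREX1 and CIDEB, 0% of exon bases are free of another listed gene, so their counts of 0 say nothing about their level.

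All 16 genes of the caspase and apoptosome list reached 10 counts in each etoposide library. CYCS, the cytochrome c that triggers the apoptosome, was the highest at 163 ± 7.67 TPM and has many pseudogenes, which makes its count uncertain. CASP10, the paralog of CASP8, was the lowest at 0.750 ± 0.084 TPM. APAF1, the scaffold that binds CASP9, was at 5.80 ± 0.973 TPM. Among the brakes on caspases, BIRC2 was at 83.9 ± 1.02 and XIAP at 11.96 ± 0.074 TPM. The list median was 18.0 TPM.

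All 16 genes of the Fanconi anaemia core complex and its substrates also passed 10 counts, with a median of 26.5 TPM. With all exons as the length, FAAP20, at 28.8 ± 2.81 TPM, lay near FANCA, the subunit it binds, at 26.9 ± 3.64 TPM, and their libraries overlapped. With the longest transcript FAAP20 was at 52.96 TPM, and FANCA was not set beside it on that length. How near the 2 genes lie therefore depends on the length used. CENPX, a histone-fold protein that recruits the complex, was the highest at 263 ± 22.8 TPM, and FANCL, the ubiquitin ligase, the lowest at 2.60 ± 0.300 TPM, on 37977 annotated exon bases. FANCD2 and FANCI, the substrates, were at 26.2 ± 0.970 and 29.3 ± 2.75 TPM. No gene of these lists with at least 10 counts was over 2-fold apart between the etoposide libraries, against 1.05% of the coding genes.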

How the data were processed

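RNA-Seq counts of U2OS cells were taken from the tables that the authors deposited. Per the submitters' processing notes and the study's methods, paired-end reads were aligned to GRCh38 with HISAT2 2.1.0, and Subread 2.0.0 featureCounts gave whole-number counts per Ensembl gene with no normalization. The strand and multi-mapping options are not given in the sources used here. The incomplete last line of each control and adriamycin table was left out, and genes beyond the shared 220 were not analysed in these libraries. Of the 67140 identifiers, 60357 matched GENCODE release 44, which gave positions, exon lengths and TPM.

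The 220 shared genes were filtered with filterByExpr, scaled by TMM and fitted together over the 6 libraries (edgeR 4.0.16 in R 4.3.3, quasi-likelihood test), with Benjamini-Hochberg adjustment over 94 genes and no replicate block. An adjusted p under 0.01 passed. The procedure was also run on simulated data. The changes planted there were larger than those of DFFB and FAAP20, so that run does not show how well changes of their size are found. DESeq2 1.42.0 was an alternative, and other settings are given with the closing observations. Intervals of count ratios are 95% exact binomial (scipy 1.17.1). Promoter windows are from RefSeq on GRCh38.p14, with windows for 5 of the 6 members (DFFB: no window).

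The members and gene lists were chosen with earlier results of these data known. Named genes are the members, genes that overlap or flank DFFB and FAAP20 (some results are not reported here), the 5 genes nearest to each in fold change, the highest, lowest and under-10-count genes of each list, and other list genes picked after their values were seen for their known role.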

Additional observations from a re-analysis of the deposited data

How the results depend on the processing

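For DFFB, the direction and the missed threshold held in all 3 comparisons under every setting run. For FAAP20, etoposide against control gave 0.23 with upper-quartile scaling and 0.21 with the library total alone. The library total alone gave 0.13 for adriamycin against control and −0.075 against etoposide, and without AGRN in that total, a choice made after seeing the data, these were 0.22 and 0.056, so none passed. With only the 4 libraries compared, adriamycin against etoposide gave 0.24 (edgeR adjusted p = 0.0280). The cause of these changes was not tested. With 1 library left out, FAAP20 ranged from −0.095 to 0.070 for etoposide against control, from 0.33 to 0.40 for adriamycin against control and from 0.29 to 0.46 for adriamycin against etoposide. AURKAIP1 and MRPL20 turned to −0.10 and −0.032 for adriamycin against etoposide with the library total alone.

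Genes past the test were 5 higher and 16 lower for etoposide against control, 18 and 18 for adriamycin against control, and 20 and 23 for adriamycin against etoposide. For etoposide against control, the higher genes numbered 17 with upper-quartile scaling, 17 with the library total alone, 17 without AGRN in it, 3 with DESeq2, 3 with the 4 libraries compared and 11 at an adjusted p under 0.05, and the lower genes 10 with upper-quartile scaling. For adriamycin against control, the higher genes numbered 3 with the library total, 11 without AGRN in it and 8 with the 4 libraries compared, and the lower genes 11 with the latter. For adriamycin against etoposide, the higher genes numbered 4 with the library total and 9 without AGRN in it. Leaving out 1 library gave 0 to 4 higher and 2 to 13 lower, 5 to 15 higher and 10 to 12 lower, and 3 to 20 higher and 5 to 23 lower genes, in the same order of comparisons.

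Replicate numbers did not pair the libraries, with deviations over 75 genes correlated at −0.068, 0.035 and −0.0063 between groups. With the replicate block, FAAP20 gave 0.35 for adriamycin against control and 0.34 against etoposide, and no call of DFFB or FAAP20 changed.

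With the longest transcript, TPM was 2.65 for DFFB, 52.3 for DFFA, 52.96 for FAAP20, 23.0 for CASP8, 3.51 for CASP9 and 27.5 for ENDOG. With coding genes alone in the sum it was 3.15 for DFFB, 69.6 for DFFA, 31.7 for FAAP20, 13.6 for CASP8 and 4.35 for CASP9. With unshared exon bases it was 2.62 for DFFB, 11.1 for CASP8 and 54.7 for ENDOG. Depth limits DFFB most, with 21 to 73 counts per library.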

Other observations

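Of the 7 genes that act downstream of the Fanconi anaemia core complex, all reached 10 counts in each etoposide library, with a median of 16.7 TPM. The highest was SLX4, a scaffold for structure-specific nucleases, at 20.3 ± 4.79 TPM (SD, n = 2), and the lowest was FAN1, a nuclease recruited by ubiquitinated FANCD2, at 8.78 ± 1.98 TPM. These were also the genes of the list that differed most between the etoposide libraries, at CPM ratios of 0.729 (95% exact binomial interval 0.668 to 0.796) and 0.741 (0.668 to 0.822) of the first library to the second, while FAAP20 differed the other way, at 1.17. BRCA2, a mediator of homologous recombination, was at 16.7 ± 1.67 TPM. None of the 7 was analysed in the control and adriamycin libraries.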
